A study of Mus musculus with 12 samples.

Results

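The genes described here are 10 that act in muscle wasting and autophagy: the transcription factor genes Foxo1, Foxo3 and Tfeb, the kinase gene Ulk1, the autophagosome coat genes Map1lc3b and Gabarapl1, the cargo receptor genes Sqstm1 and Bnip3, and the ubiquitin ligase genes Fbxo32 and Trim63. They were chosen by name, with earlier results of these data known. Each was found among 15089 genes listed in each of 4 deposited tables. All 10 passed the filter on low values in every table. PolyA RNA was sequenced from hearts of male C57Bl/6J mice aged 12 weeks, for which the labels name no transgene or deletion. The mice ate a control diet or a diet without the branched-chain amino acids leucine, isoleucine and valine (BCAA-free), beginning 4 days ahead of surgery. Surgery was a sham operation or transverse aortic constriction (TAC), which narrows the aorta so that the left ventricle works against a higher pressure, and hearts were collected 2 weeks later. Each combination of diet and surgery had 3 samples, and a group is named here by both, as in control diet sham or BCAA-free TAC. Whether hearts were pooled is not stated, so the p-values cover the spread among samples of a group and no more, and part of that spread may be technical. The labels also do not give the time of day or the feeding state at collection.

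FOXO factors are held in the cytoplasm when insulin or growth factor signalling activates the kinase AKT, and enter the nucleus when that signal is low. In striated muscle they activate the ubiquitin ligases atrogin-1 (Fbxo32) and MuRF1 (Trim63), which mark sarcomere and other proteins for the proteasome, and genes of autophagy such as Map1lc3b, Gabarapl1 and Bnip3. Amino acids act through the kinase complex mTORC1, which restrains the autophagy kinase ULK1 and keeps TFEB, the activator of lysosome genes, out of the nucleus. Much of this control acts on the proteins, by phosphorylation and location, which RNA levels do not measure.

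The libraries held 13848953 to 52059546 reads counted on genes. The 10 genes were covered by 363 to 25944 reads per library. Values are normalized read counts, which are read counts divided by 1 size factor per library within a table, and every comparison stays within its table. All 8 cardiomyocyte markers were listed in every table. Of 6 skeletal muscle markers, Myh1, Myh2, Myh4 and Actn3 were not listed and the other two summed to 44.8 to 116.6, so the muscle RNA measured was cardiac in its markers. Pressure overload markers (Nppa, Nppb, Acta1, Myh7 and Postn) summed to 33543 to 52381 in control diet sham and 138699 to 360716 in control diet TAC, and without BCAA they summed to 39100 to 53245 in sham and 76499 to 122728 in TAC samples, with no overlap on either diet. Control diet TAC replicate 2 and control diet sham replicate 3 stood apart from their groups, with a chi-square per gene against the other replicates of 53.2 to 72.9 where the remaining pairs of those groups gave 11.5 and 13. In BCAA-free sham the pairs with replicate 3 gave 40.1 and 17.5 and the pair of replicates 1 and 2 gave 5.09. This statistic grows with the number of reads, which differed among libraries. Some estimates of the 10 genes moved by over 1.5 times without control diet TAC replicate 2 or control diet sham replicate 3. They are given without that library here or, where the sign changed, with the processing alternatives.

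On a common scale of reads per kilobase of exon, scaled by library size as in RPKM, Sqstm1 had the highest level of the 10 genes and Foxo1 the lowest. Sqstm1, which encodes the p62 receptor that ties ubiquitinated cargo to the autophagosome, averaged 149 over the 12 libraries (130 to 164). Trim63 followed at 123 (91.4 to 165), Bnip3 at 66.0 (52.5 to 89.5), Gabarapl1 at 60.4 (52.8 to 80.9), Fbxo32 at 33.7 (24.5 to 40.7) and Map1lc3b at 29.4 (at most 32.8). Foxo3 and Ulk1 both averaged 16.8, Tfeb 6.98 (5.63 to 9.13) and Foxo1 2.97 (2.34 to 3.40). The ranges overlapped for Sqstm1 and Trim63, for Bnip3 and Gabarapl1, for Fbxo32 and Map1lc3b and for Foxo3 with Ulk1, while the remaining neighbours in this order were separated in every library. That order depends on the length used, which was the union of a gene's exons. Per kilobase of the longest transcript, a choice made after the data were seen, Map1lc3b (53.4) came before Fbxo32 (33.7), and Tfeb (16.9; 13.6 to 22.1) overlapped Foxo3 (18.6) and Ulk1 (20.9). By either length the ubiquitin ligase Trim63 stood above Fbxo32, and Foxo3 above Foxo1, in all 12 libraries. Within a gene the levels were narrow: the highest library exceeded the lowest by a factor of 1.26 for Sqstm1 and at most 1.81 for Trim63.

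**Figure D1:**
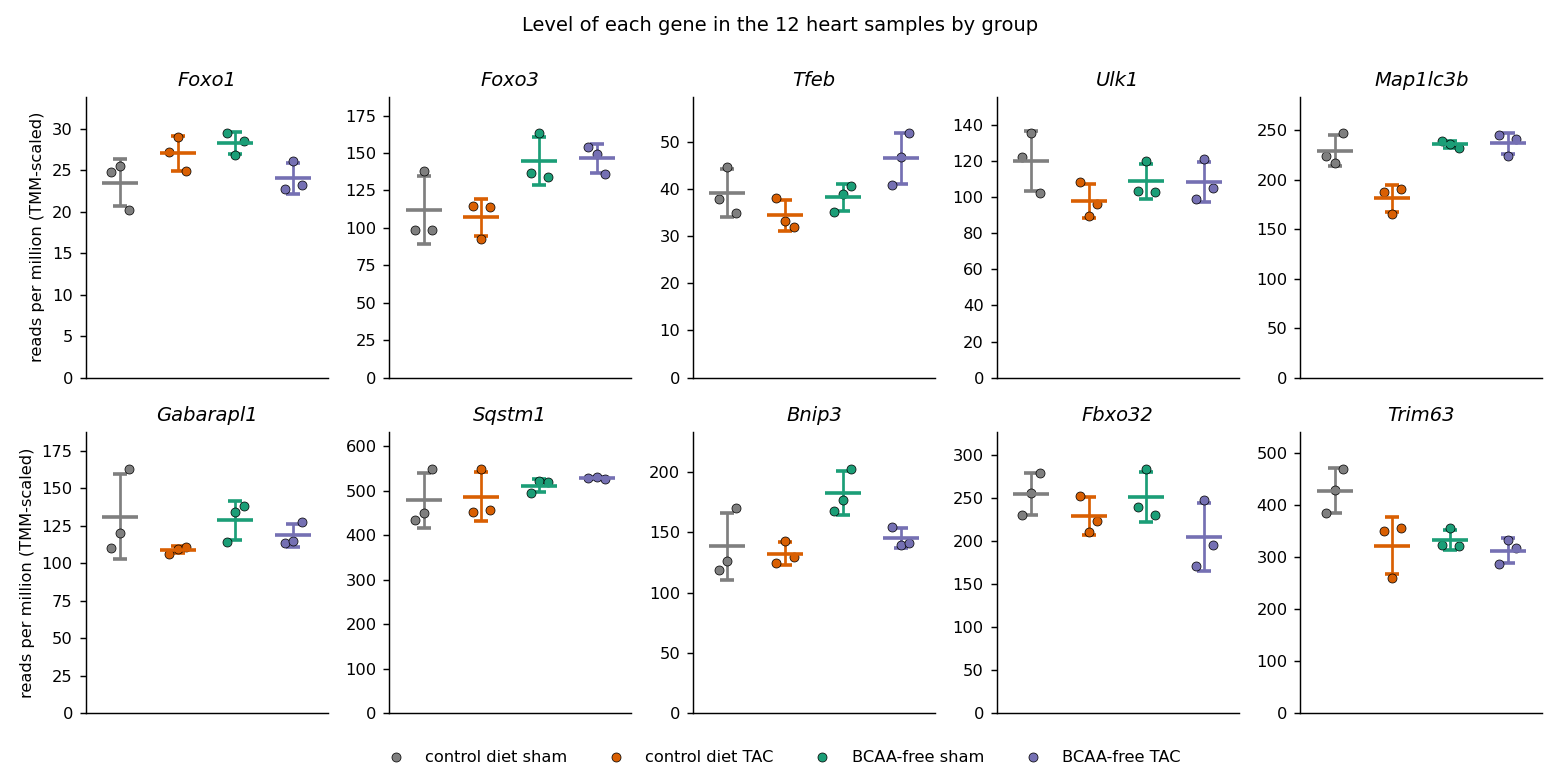
Level of each of the 10 genes in the 12 samples, in TMM-scaled CPM (vertical axes start at 0), by group; points are samples, the wide bar is the mean and the error bar the SD of 3 samples. Map1lc3b was lowest in the control diet TAC samples, Foxo3 was higher in both BCAA-free groups on average, and most other genes overlapped between groups.

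The promoters of 9 of the 10 genes were in the RefSeq table used (GRCm38.p6; 250 bases before to 50 after the start site, 11 windows because Tfeb has several). They were searched on both strands for a forkhead motif (GTAAACA), an E-box (CACGTG) and the CLEAR motif, which is the E-box with GT before it and AC after it and is known as the element bound by TFEB. Members were counted by gene and the background by promoter window, so the shares below are in unlike units. The forkhead letters were in the window of 1 of the 9 genes, Trim63, against 3.65% of 32851 promoters. The E-box was also in 1 of the 9, Bnip3, against 7.15% of promoters, and the CLEAR motif in 0 of 9 against 0.33%. The 250 bases before each of these 2 start sites are shown because they hold the searched letters, in capitals. In Trim63 (+ strand) the forkhead motif reads on the opposite strand and has its first base at -194 from the start site. In Bnip3 (- strand) the first base of the E-box is at -108. These matches describe the letters only.
Trim63, chr4:134314870-134315119, + strand: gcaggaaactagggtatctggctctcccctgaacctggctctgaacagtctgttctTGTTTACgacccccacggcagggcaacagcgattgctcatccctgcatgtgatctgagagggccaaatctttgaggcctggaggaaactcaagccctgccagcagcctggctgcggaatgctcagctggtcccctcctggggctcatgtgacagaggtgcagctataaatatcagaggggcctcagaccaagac
Bnip3, chr7:138909507-138909756, - strand: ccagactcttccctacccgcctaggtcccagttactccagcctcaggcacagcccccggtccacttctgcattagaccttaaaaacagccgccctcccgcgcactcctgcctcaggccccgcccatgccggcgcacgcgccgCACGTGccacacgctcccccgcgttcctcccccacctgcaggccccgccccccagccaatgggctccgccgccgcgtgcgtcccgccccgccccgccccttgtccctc

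The first comparison, TAC with sham in mice fed the control diet, asks how pressure overload altered these genes with a full amino acid supply. None of the 10 passed the test: limma called 0 of 10 at an adjusted p under 0.05, beside 4.04% of all 15397 genes tested (2.95% higher and 1.09% lower). Without adjustment 3 of the 10 had a p under 0.05 (28.2% of all genes), edgeR's quasi-likelihood test called 0 and DESeq2 called 1, Map1lc3b. The 10 genes had a median log2 fold change of -0.18, with 8 estimates below 0, where the median of all genes was -0.0047. Trim63 and Map1lc3b had groups that did not overlap, both lower after TAC. Of all genes tested 35.2% had none, 17.8% with TAC higher and 17.4% with TAC lower.

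Trim63 (MuRF1), the ligase that binds titin at the M-band, had normalized counts of 11426, 12616 and 14428 in control diet sham replicates 1, 2 and 3 and 10448, 7758 and 10649.8 after TAC. All TAC samples lay below all sham samples, and the log2 fold change was -0.42 ± 0.16 (SE; adjusted p = 0.12 by limma), or -0.28 without control diet TAC replicate 2, the lowest sample. Its partner Fbxo32 (atrogin-1) had 6848, 7536 and 8572 in sham and 7530, 6281 and 6681 in TAC samples, which overlapped (log2 fold change -0.16 ± 0.13, adjusted p = 0.438 by limma).

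Map1lc3b encodes LC3B, the ubiquitin-like protein that is joined to lipid on the growing autophagosome. It had 6653, 6389 and 7579 normalized counts in sham and 5574, 4952 and 5712 after TAC, with every TAC sample below every sham sample. The log2 fold change was -0.34 ± 0.12 (adjusted p = 0.1 by limma). In the authors' deposited table the same contrast has a log2 fold change of -0.34 and an adjusted p of 0.0444. A fit of limma over all 12 libraries called both Map1lc3b (-0.34, adjusted p = 0.0168) and Trim63 (-0.42, adjusted p = 0.0297), and it called 19.9% of all genes.

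Ulk1, the kinase that starts autophagy, had 3642, 3987 and 3147 in sham and 3219, 2669 and 2883 in TAC samples, an overlap of 1 sham sample (log2 fold change -0.29 ± 0.12, adjusted p = 0.159 by limma). Gabarapl1, a second coat protein gene of the same family as LC3B, had 3278 and 3528 in sham replicates 1 and 2 and 5003 in replicate 3, against 3163 to 3314 after TAC. Its log2 fold change of -0.25 ± 0.16 (adjusted p = 0.322 by limma) moved to -0.066 without control diet sham replicate 3. That same library was the highest of its group for Bnip3 (5222 against 3541 and 3718) and Sqstm1 (16865 against 12954 and 13286). Bnip3, a mitophagy receptor of the outer mitochondrial membrane, had a log2 fold change of -0.053 ± 0.15 with it and 0.12 without it, and neither passed. Sqstm1 averaged 14368 ± 2168 in sham and 14538 ± 1646 in TAC samples (SD, n = 3).

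Of the 3 transcription factor genes, Foxo1 averaged 704 ± 71.6 in sham and 809 ± 61.1 after TAC (SD, n = 3; log2 fold change 0.20 ± 0.12, adjusted p = 0.287 by limma). Foxo3 averaged 3345 ± 628 and 3198 ± 368, and Tfeb 1172 ± 129 and 1027 ± 95.2 (log2 fold change -0.19 ± 0.12, adjusted p = 0.326 by limma). The samples overlapped for all 3. Without control diet sham replicate 3 the estimates were 0.12 for Foxo1, -0.12 for Foxo3 and -0.077 for Fbxo32. Without control diet TAC replicate 2 they were -0.10 for Fbxo32 and -0.11 for Bnip3, and none of these passed. In the same comparison 3 of 6 fibroblast markers rose, and 1 of 8 cardiomyocyte markers fell (Tnni3), with a median of -0.36 over the 8. Tagln (0.77) of 6 smooth muscle and pericyte markers and Csf1r (0.42) of 6 macrophage markers were called higher. Of 10 core clock genes Per2 (1.19) was called higher and Arntl (-0.51) lower. The summed cardiomyocyte markers were 1681201 to 2075214 after TAC and 2269817 to 2431654 in sham, and the summed fibroblast markers 31211 to 71035 and 18443 to 20379. In bulk heart RNA fewer cells of a type and less RNA per cell cannot be told apart, and the part of these markers in the lower values of Trim63 and Map1lc3b was not tested.

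**Figure D2:**
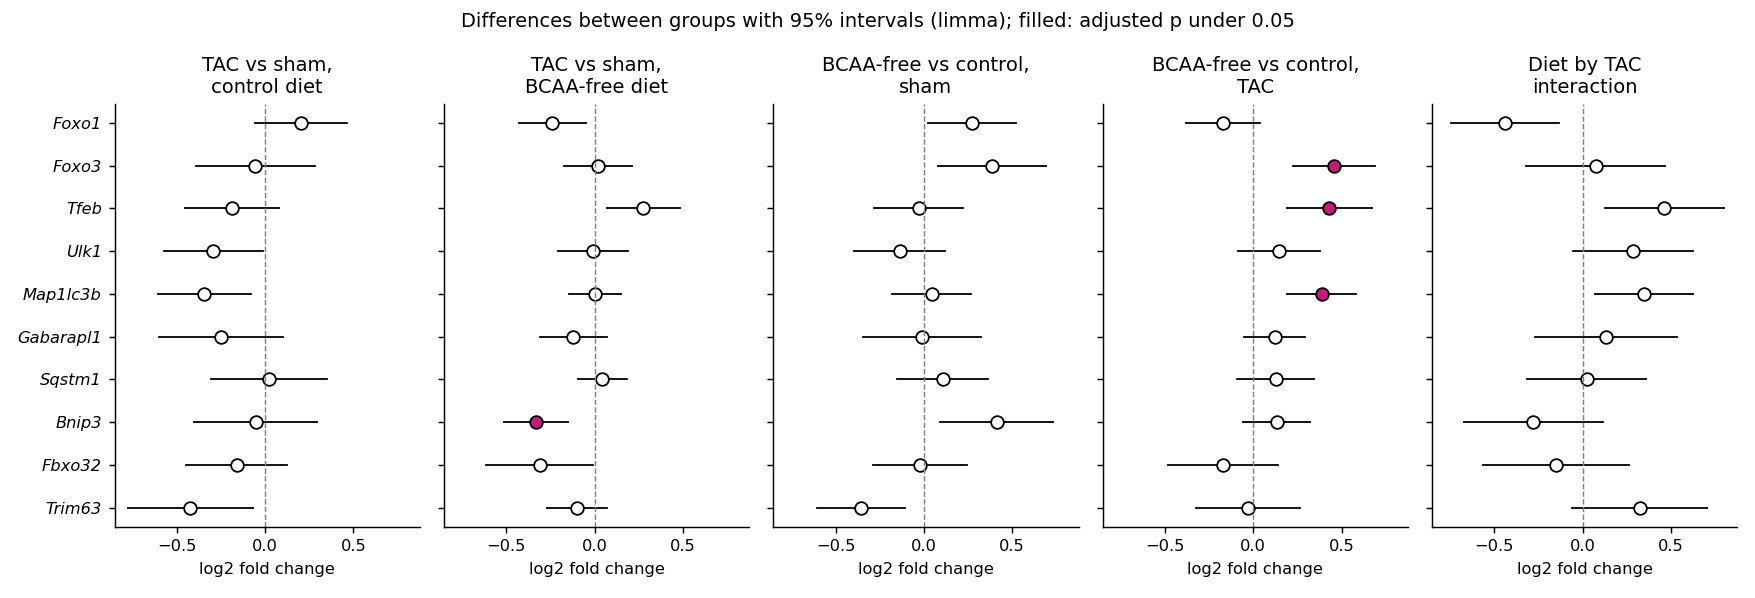
Log2 fold changes (horizontal axes) of the 10 genes with 95% intervals from limma in the 4 comparisons of 2 groups and, at the right, the difference between the TAC responses on the 2 diets; filled points have an adjusted p under 0.05. Bnip3 in the second panel and Foxo3, Tfeb and Map1lc3b in the fourth are filled, and no gene is filled in the other panels.

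On the BCAA-free diet TAC was compared with sham in the same way, and only Bnip3 of the 10 genes passed, lower after TAC. The test called 6.23% of all 15670 genes, 3.34% as higher and 2.89% as lower. Bnip3 had 5919, 6212 and 7131 normalized counts in BCAA-free sham and 5434, 4909 and 4933 in BCAA-free TAC samples. Every TAC sample was below every sham sample, the ratio of means was 0.793 and the log2 fold change -0.33 ± 0.083 (adjusted p = 0.0393 by limma). The authors' deposited table gives -0.34 with an adjusted p of 0.00839. The call was lost without any 1 of the BCAA-free sham replicates 1, 2 and 3 or BCAA-free TAC replicates 2 and 3 (adjusted p = 0.0639 to 0.158), and it was also lost when trends over GC content and transcript length were removed (-0.23, adjusted p = 0.203) and in the fit over 12 libraries (-0.33, adjusted p = 0.194). In these last 2 fits only 0.544% and 0.355% of all genes were called.

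Foxo1, Sqstm1 and Tfeb also had groups that did not overlap on this diet, as did 29.5% of all genes (14.6% higher and 15% lower), but none of the 3 passed. Foxo1 had 1040 (1039.6), 945 and 1003 in sham and 802, 921 and 812 after TAC, all TAC samples lower (log2 fold change -0.24 ± 0.087, adjusted p = 0.116 by limma). Tfeb had 1236, 1372 and 1427 in sham and 1438, 1644 and 1812 after TAC, all TAC samples higher by at least a small margin (0.27 ± 0.095, adjusted p = 0.0994 by limma). Tfeb has the highest GC content of the 10 transcripts, 63.2%, and its estimate was -0.049 when trends over GC content and length were removed. Sqstm1 was nearly level, with 17427 to 18356 in sham and 18416 to 18733 in TAC samples (0.044 ± 0.064). Fbxo32 had 8466, 9999.5 and 8078 in sham and 6009, 8711 and 6841 after TAC, an overlap of 1 TAC sample (-0.31 ± 0.13, adjusted p = 0.196 by limma). Without that sample, BCAA-free TAC replicate 2, the estimate was -0.46 and passed (adjusted p = 0.0479 by limma), and without BCAA-free TAC replicate 1 it was -0.19. Trim63, Gabarapl1, Map1lc3b, Ulk1 and Foxo3 had log2 fold changes from -0.12 (Gabarapl1) to 0.018 (Foxo3), and their samples overlapped. Map1lc3b was as level as any of them, 8293 ± 141 in sham and 8316 ± 371 after TAC (SD, n = 3), with a 95% interval of the log2 fold change from -0.14 to 0.15.

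Few cell type markers were called between BCAA-free TAC and BCAA-free sham. Of 6 macrophage markers C1qa (0.41) and C1qb (0.44) were higher after TAC, with sums of 3898 to 4874 against 3345 to 3642. Among 8 cardiomyocyte markers Actc1 (0.36) was higher, with a median of 0.046 over the list and sums of 2992413 to 3052483 against 2736959 to 3016917. Pdgfra (-0.35) of 6 fibroblast markers, Tek (-0.28) of 6 endothelial markers and Rgs5 (-0.30) of 6 smooth muscle and pericyte markers were called lower. So was Clock (-0.82) of 10 core clock genes. These lists did not fall as a whole in each case. Their medians were 0.211 for fibroblast, 0.122 for smooth muscle and pericyte, -0.0745 for endothelial and 0.0156 for core clock genes. The summed fibroblast markers overlapped, with 20815.3 to 25238.5 after TAC and 20951.3 to 21797.6 in sham. Of 5 blood cell markers Hba-a2 (0.62) was called higher. Of 4 atrial markers 0 were called, but their median was 0.942. They summed to 9379.9 to 19732.8 after TAC and 4425.7 to 10259.5 in sham. The part of these genes in the lower value of Bnip3 was not tested.

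Hearts after sham surgery show the effect of the BCAA-free diet without overload. None of the 10 genes passed: limma called 0 of 10, beside 0.624% of all 15217 genes (0.25% higher and 0.375% lower), with 4 of the 10 (16.6% of all genes) under an unadjusted p of 0.05, and DESeq2 and edgeR called 0. Bnip3 had 4861, 5099.8 and 5859 normalized counts on the BCAA-free diet and 3422, 3601 and 4999.6 on the control diet. The highest control sample, replicate 3, lay inside the range of the BCAA-free samples, and the log2 fold change was 0.41 ± 0.15 (adjusted p = 0.197 by limma). Without control diet sham replicate 3 the estimate was 0.58 and passed (adjusted p = 0.0105 by limma).

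Foxo3 had 3948, 4715 and 3879 on the BCAA-free diet and 2832, 3939.7 and 2909 on the control diet, an overlap of 1 control sample (0.38 ± 0.14, adjusted p = 0.207 by limma). Foxo1 had 854, 776 and 824 against 713, 729 and 596, with all BCAA-free samples higher (0.27 ± 0.11, adjusted p = 0.266 by limma). Trim63 went the other way: 9337, 10281 and 9291 on the BCAA-free diet lay below 11042, 12221 and 13815 on the control diet (-0.35 ± 0.11, adjusted p = 0.16 by limma). Foxo1 and Trim63 were the 2 genes of the 10 without overlap, where 23% of all genes had none (11.7% higher and 11.3% lower). The remaining 6 genes had log2 fold changes from -0.14 (Ulk1) to 0.11 (Sqstm1), and their samples overlapped. Without control diet sham replicate 3 the estimates were 0.22 for Sqstm1, 0.11 for Map1lc3b, -0.24 for Ulk1 and -0.097 for Tfeb, and 0.18 for Foxo1, none of which passed. Without control diet sham replicate 1 Sqstm1 was at 0.038, and without replicate 2 of that group Ulk1 was at -0.056. Fbxo32, at 7266 ± 832 against 7375 ± 798 (SD, n = 3), had an estimate of -0.022 with a 95% interval from -0.29 to 0.24. Among cell type markers 0 of 8 cardiomyocyte, 0 of 6 fibroblast and 0 of 6 macrophage markers were called. The summed macrophage markers were 2746.5 to 2991.7 on the BCAA-free and 3851.1 to 5419.9 on the control diet (median log2 fold change -0.685). Of 6 smooth muscle and pericyte markers 1 was higher, as were 1 of 7 glucocorticoid-responsive and 1 of 10 core clock genes. The part of these markers in the values of the 10 genes was not tested.

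After TAC the diets differed in 3 of the 10 genes. Foxo3, Map1lc3b and Tfeb were higher on the BCAA-free diet, and none was lower; the test called 34.2% of all 15872 genes, 16.5% as higher and 17.7% as lower, so 3 of 10 called in either direction is near the share of all genes. Foxo3 had 5613, 5464 and 4924 normalized counts in BCAA-free TAC and 4174, 3370.1 and 4153 in control diet TAC samples. All BCAA-free samples were higher, the ratio of means was 1.37 and the log2 fold change 0.46 ± 0.10 (adjusted p = 0.0102 by limma). It was called under each of the other settings tried, and without any 1 library the estimate ranged from 0.36 to 0.51.

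Map1lc3b had 8919, 8199.5 and 8752 in BCAA-free TAC and 6822, 6019 and 6956 in control diet TAC samples. Again all BCAA-free samples were higher, with a ratio of means of 1.31 and a log2 fold change of 0.39 ± 0.087 (adjusted p = 0.01 by limma). It too was called under each of the other settings tried, with estimates from 0.32 to 0.43 without any 1 library. The same control diet TAC samples enter this comparison and the comparison of TAC with sham on the control diet, where Map1lc3b was lower after TAC without passing, so the 2 results are not independent.

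Tfeb had 1490 (1490.3), 1707 and 1879 in BCAA-free TAC and 1389, 1204 and 1164 in control diet TAC samples, with all BCAA-free samples higher. The ratio of means was 1.35 and the log2 fold change 0.43 ± 0.11 (adjusted p = 0.0143 by limma). This call was less stable than the other two: it was lost with trends over GC content and length removed (0.18, adjusted p = 0.145), with scaling to library totals alone (0.30, adjusted p = 0.0528), and without control diet TAC replicate 3 (adjusted p = 0.055), BCAA-free TAC replicate 2 (0.0534) or BCAA-free TAC replicate 3 (0.0586). In the authors' deposited table all 3 genes pass, with adjusted p-values of 0.000673 for Foxo3, 0.000369 for Map1lc3b and 0.00291 for Tfeb.

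The second ATG8 gene, Gabarapl1, was also separated between the diets after TAC, with 4129 to 4618 on the BCAA-free and 3871 to 4036 on the control diet, but its log2 fold change of 0.12 ± 0.076 did not pass (adjusted p = 0.247 by limma). In all, 4 of the 10 genes had groups without overlap, each higher on the BCAA-free diet, where 50.8% of all genes were separated, 25.2% higher and 25.6% lower. Sqstm1 had 19262, 19449 and 19091 on the BCAA-free diet and 16503, 19975 and 16680.4 on the control diet. Control diet TAC replicate 2 alone lay above the BCAA-free samples, and without it the log2 fold change of 0.13 became 0.22 (adjusted p = 0.0455 by limma). Bnip3 (0.13 ± 0.084) and Ulk1 (0.15 ± 0.10; 0.081 without control diet TAC replicate 2) did not pass.

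The ubiquitin ligases were not called. Trim63 had 10427, 12175 and 11524 on the BCAA-free diet and 12786, 9429 and 12971 on the control diet after TAC, so the groups overlapped (-0.032 ± 0.13, 95% interval from -0.33 to 0.26), and the estimate was -0.18 without control diet TAC replicate 2. Fbxo32 had 6226, 9044 and 7092 against 9215, 7634 and 8137 (-0.17 ± 0.14, adjusted p = 0.354 by limma). Foxo1 averaged 876 ± 69.2 on the BCAA-free and 986 ± 73.5 on the control diet (SD, n = 3; -0.17 ± 0.093, adjusted p = 0.182 by limma).

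Markers of cell types moved in this comparison as well. Of 8 cardiomyocyte markers, 5 were higher on the BCAA-free diet after TAC (Tnni3, Tnnt2, Myl2, Myh6 and Pln) and Ttn was lower, with a median of 0.56. The 8 summed to 3106843 to 3163013 on the BCAA-free and 2043364 to 2539639 on the control diet. Of 6 fibroblast markers 5 were lower (median -0.95), and 6 of 6 macrophage markers were lower (median -0.72). The summed fibroblast markers were 21611 to 26164 against 38196 to 86337, and the summed macrophage markers 4039 to 5053 against 6846 to 8478. Of 5 pressure overload markers 3 were lower on the BCAA-free diet (median -1.5), with sums of 79269 to 127229 against 169740 to 438421. Of 4 atrial markers 3 were higher (median 0.94), with sums of 9719.5 to 20456.5 against 6207 to 8911. Of 6 endothelial markers 4 were lower and 1 higher, of 7 glucocorticoid-responsive genes 3 were higher, and of 10 core clock genes 4 were higher and 3 lower. The part of these markers in the higher values of Foxo3, Map1lc3b and Tfeb was not tested.

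The interaction asks whether the response to TAC differed between the diets, with a positive value where TAC raised a gene more, or lowered it less, on the BCAA-free diet. Limma called 0 of the 10 genes, beside 8.65% of all 15195 genes (4.92% higher and 3.73% lower). Without adjustment 3 had a p under 0.05 (28.4% of all genes), edgeR called 0, and DESeq2 called Map1lc3b and Foxo1. Tfeb had an interaction of 0.46 ± 0.16 (adjusted p = 0.0765 by limma), from -0.19 with the control diet and 0.27 without BCAA. Foxo1 had -0.44 ± 0.14 (adjusted p = 0.066 by limma), from 0.20 and -0.24. Map1lc3b had 0.35 ± 0.13 (adjusted p = 0.101 by limma, 0.0434 by DESeq2), from -0.34 and 0.0030. Foxo1 passed by DESeq2 (adjusted p = 0.0442) and with scaling to library totals alone (-0.61, adjusted p = 0.0329). Bnip3, called for TAC on the BCAA-free diet only, had an interaction of -0.28 ± 0.18 (adjusted p = 0.333 by limma), so a difference between its TAC responses was not shown, although it passed without control diet sham replicate 3 (-0.45, adjusted p = 0.0461). Trim63 (0.32) and Ulk1 (0.29) had estimates of similar size to Bnip3 and did not pass, and Foxo3 (0.074), Gabarapl1 (0.13), Sqstm1 (0.022) and Fbxo32 (-0.15) were nearer to 0. Without control diet TAC replicate 2 the estimate of Trim63 was 0.18, and without control diet sham replicate 3 those of Foxo3 and Fbxo32 were 0.14 and -0.23.

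The BCAA-free TAC libraries differed from the other 9 in base composition across all genes. The rank correlation of a library's deviation with transcript GC content was 0.201, 0.406 and 0.394 in these 3 libraries and -0.223 to 0.0379 in the others. These 3 libraries make up a whole group, so a bias of the libraries and a difference of that group cannot be told apart in this trend. Among the 10 transcripts GC content ran from 41.6% in Bnip3 and 45.8% in Fbxo32 to 63.2% in Tfeb. Taking out these trends, and those over length, moved Tfeb the most of the 10 in both comparisons that hold these libraries, with Fbxo32 next, as drawn in the plot of estimates with and without these trends. After TAC, Foxo3 (53.2% GC) went from 0.46 to 0.57 and Map1lc3b (51.5% GC) from 0.39 to 0.42, both still called, while Tfeb went from 0.43 to 0.18. The interaction estimates of Tfeb and Foxo1 became 0.13 and -0.17.

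**Figure D3:**
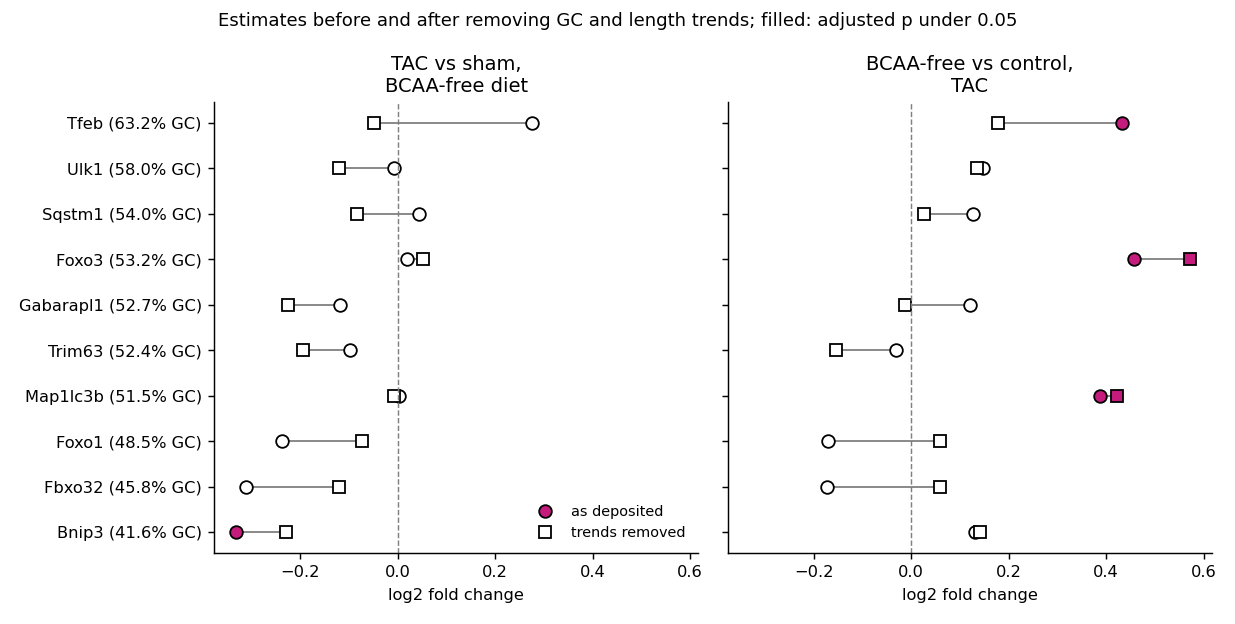
Log2 fold changes of the 10 genes (horizontal axes), ordered by transcript GC content from highest at the top, as deposited (circles) and with each library's trends over GC content and transcript length removed (squares), in the 2 comparisons that hold the BCAA-free TAC libraries; filled symbols have an adjusted p under 0.05 by limma. Tfeb at the top moved the farthest, while Foxo3 and Map1lc3b after TAC stayed filled.

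Around these genes, 7 lists of pathway genes were examined, each including its members among the 10, and their calls are counted beside the share of all genes called. The lists were chosen with earlier results of these data known, so their shares are descriptions and not an independent test of the pathways. Counting a gene once, limma called 4 of 134 for TAC on the control diet (2.99%), beside 4.04% of all genes tested. The ATG8 gene Map1lc3a, a close relative of Map1lc3b, fell from 13654 ± 2382 in sham to 8649.8 ± 810 after TAC (SD, n = 3; log2 fold change -0.65 ± 0.15, adjusted p = 0.0486 by limma), 1 of 21 in its list. Pink1, the kinase that marks damaged mitochondria for mitophagy, fell from 25198 ± 1231 to 14808 ± 2949 (-0.79 ± 0.16, adjusted p = 0.042 by limma), 1 of 16 receptors. Igf1r, the receptor for insulin-like growth factor upstream of AKT and FOXO, rose (0.68 ± 0.15, adjusted p = 0.0451 by limma), 1 of 19, and Bcl2l11, a FOXO target that encodes the death protein BIM, fell (-0.65, adjusted p = 0.0468 by limma), 1 of 22. All 4 calls were lost without any 1 of control diet sham replicates 1, 2 and 3 or control diet TAC replicates 2 and 3, and edgeR's quasi-likelihood test called 2 of them. No gene of the 20 muscle atrophy, 13 initiation and 25 lysosome genes was called, and those with the smallest p were Acvr2b (-0.64, adjusted p = 0.106), Atg13 (0.16, 0.322) and Flcn (-0.47, 0.0713).

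For TAC on the BCAA-free diet 20 of 135 genes of the lists were called (14.8%), 5.19% as higher and 9.63% as lower, beside 3.34% and 2.89% of all genes. The kinase gene Akt1 rose (0.40 ± 0.08) and Pik3ca (-0.33), Prkaa2 (-0.31) and Pdpk1 (-0.31), kinase genes of the same list, fell. They were among 5 of 19 FOXO factors and regulators called. Of 22 other FOXO targets Eif4ebp1 (0.64) and Trib1 (0.65) rose, and 3 fell, with Klhl24 (-0.60) and Bcl2l11 (-0.52) among them. Of 13 initiation genes Atg101 (0.50) and Rubcn (0.32) rose and Rb1cc1 (-0.44), a scaffold of the ULK1 complex, fell. Fbxl22 (0.37) rose and Fbxo30 (-0.42) fell among 21 atrophy genes, Phb2 (0.27), a mitophagy receptor of the inner membrane, rose among 16 receptors, and Rragd (-0.35), Fnip1 (-0.35) and Ctsl (-0.31) fell among 25 lysosome genes. In the list of 21 ATG8 and conjugation genes Atg2a had the smallest p and did not pass (0.23, adjusted p = 0.0931 by limma). Of the 17 named genes called here, 1 (Eif4ebp1) was still called with trends over GC content and length removed and 0 in the fit over 12 libraries, and leaving out 1 library left 1 to 12.

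After sham surgery Igf1r was the 1 pathway gene of 134 called between the diets (0.746%, beside 0.624% of all genes), from 709.6 ± 102 on the control diet to 1139 ± 90.7 on the BCAA-free diet (SD, n = 3; 0.69 ± 0.13, adjusted p = 0.0422 by limma). It was lost without control diet sham replicate 1 or any of the 3 BCAA-free sham replicates (adjusted p = 0.0597 to 0.214), and with the filter raised to a mean of 100 (adjusted p = 0.0504). Among the rest, Atg13 (0.48, adjusted p = 0.0597), Fbxl22 (-0.54, 0.0536) and Bcl2l11 (0.46, 0.0868) had the smallest p of their lists without passing, as did Npc1 (0.37, 0.157), Wipi1 (-0.25, 0.231) and Calcoco1 (0.26, 0.269).

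After TAC many pathway genes differed between the diets, in both directions: 60 of 135 (44.4%), 27.4% as higher and 17% as lower, beside 16.5% and 17.7% of all genes. Of 21 ATG8 and conjugation genes 6 were higher on the BCAA-free diet and 1 lower, with a median of 0.18 against 0.00026 for all genes. Map1lc3a had 16936 ± 1065 against 10547 ± 1024 (SD, n = 3; 0.69 ± 0.099, adjusted p = 0.002 by limma), and Atg2a (0.40) and Atg10 (0.33) were higher and Wipi1 (-0.34) lower. Of 16 receptors 4 were higher and 2 lower. Pink1 had 33403 ± 1987 against 18059 ± 3649 (0.91 ± 0.15, adjusted p = 0.00301 by limma), Calcoco1 was higher by 0.70, Phb2 by 0.34, and Ncoa4, the receptor for ferritin, had -0.36. Of 13 initiation genes Atg101 (0.38) and Pik3c3 (0.29), the lipid kinase of autophagy, were higher and Nrbf2 (-0.45) lower.

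The muscle ligases other than Trim63 and Fbxo32 split by gene. Fbxo31 (1.10 ± 0.16, adjusted p = 0.0026 by limma) and Trim54 (0.60 ± 0.086), the MuRF3 relative of Trim63, were among 5 of 21 genes of that list higher on the BCAA-free diet after TAC. Fbxo40 (-0.67 ± 0.085, adjusted p = 0.00133 by limma) and Fbxo30 (-0.65 ± 0.093), a ligase known from denervated muscle, were among 5 that were lower, and the list's median was -0.032. Of 19 FOXO factors and regulators 5 were higher, Foxo3 among them, and 6 lower. Irs1, the adaptor of the insulin receptor, was lower (-0.95 ± 0.19), as were Prkaa2 (-0.48) and Pdpk1 (-0.44), and Akt2 was higher (0.48). Of 22 other FOXO targets 9 were higher, with Mxi1 (0.51) and Eif4ebp1 (0.37) among them, and 5 lower, with Sesn3 (-0.62) and Rictor (-0.53). Of 25 TFEB family and lysosome genes 6 were higher, among them Npc1 (0.63), Gaa (0.48) and Mcoln1 (0.29), and 4 lower, led by Fnip2 (-0.85); the median was 0.014. Of the 27 named genes, 22 were still called with trends over GC content and length removed; Prkaa2, Rictor, Atg101, Ncoa4 and Phb2 were not. Scaling to library totals alone left 21 and leaving out 1 library 22 to 27.

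**Figure D4:**
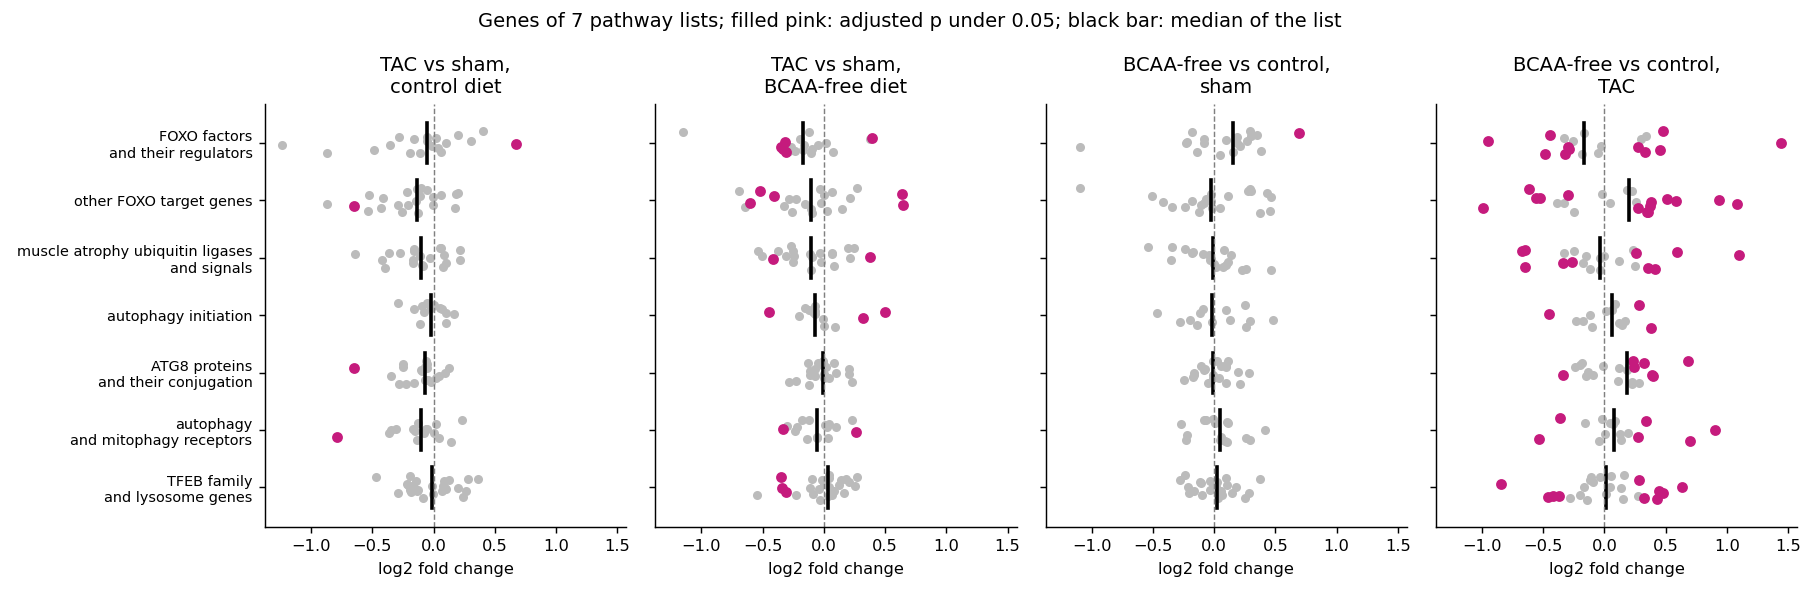
Log2 fold changes (horizontal axes) of the genes in 7 pathway lists in the 4 comparisons of 2 groups; each point is a gene, pink where the adjusted p was under 0.05 by limma, and the black bar is the median of the list. Pink points are few in the first 3 panels and lie on both sides of 0 in the fourth, and the medians stay between -0.17 and 0.20.

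The interaction was called for 10 of 135 genes of these lists (7.41%), beside 8.65% of all genes. Map1lc3a (0.85 ± 0.17, adjusted p = 0.0157 by limma) and Pink1 (0.79 ± 0.18, adjusted p = 0.0228 by limma) fell with TAC on the control diet, while on the BCAA-free diet Map1lc3a averaged 14163 ± 738 in sham and 16332 ± 1043 in TAC samples and Pink1 32049 ± 1810.1 and 32210 ± 1907 (SD, n = 3). Igf1r had -0.94 ± 0.19 (adjusted p = 0.0167 by limma). With trends over GC content and length removed, Igf1r (-0.67, adjusted p = 0.0452) and Sod2 (0.83, adjusted p = 0.0223) were still called, while Map1lc3a (0.38, adjusted p = 0.123) and Pink1 (0.55, adjusted p = 0.116) were not. Pink1 was also lost without BCAA-free sham replicate 1 or 2 or BCAA-free TAC replicate 1 or 3 (adjusted p = 0.0515 to 0.0642).

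Over the 12 libraries the 10 genes varied together in part. The correlations given here are descriptions over libraries that share groups, depth and normalization, and 45 pairs were computed. Fbxo32 and Trim63, the pair of ligases, had the highest correlation over all libraries (Pearson r = 0.694, or 0.721 with the group means removed). Bnip3 went with Gabarapl1 (0.667 and 0.833) and with Sqstm1 (0.655 and 0.843). Control diet sham replicate 3 was the highest of its group for 6 of the 10 genes, these 3, Fbxo32 and Trim63 among them. Without it, an alternative chosen after the data were seen, Bnip3 had 0.73 and 0.48 with Gabarapl1 and 0.62 and 0.63 with Sqstm1. Fbxo32 and Trim63 then had 0.622 and 0.685 and were no longer the highest pair. Over the 11 libraries left that was Trim63 with Ulk1 (0.827, or 0.777 with the group means removed). Foxo1 was opposed to Map1lc3b (-0.456 and -0.866), to Gabarapl1 (-0.478 and -0.72) and to Trim63 (-0.5 and -0.489). Without that library these became -0.36 and -0.79 for Map1lc3b, 0.045 and -0.30 for Gabarapl1, and -0.17 and -0.34 for Trim63. Foxo3 and Map1lc3b, both called after TAC, had 0.544 over all libraries and -0.0012 with the group means removed, or 0.75 and 0.28 without that library.

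**Figure D5:**
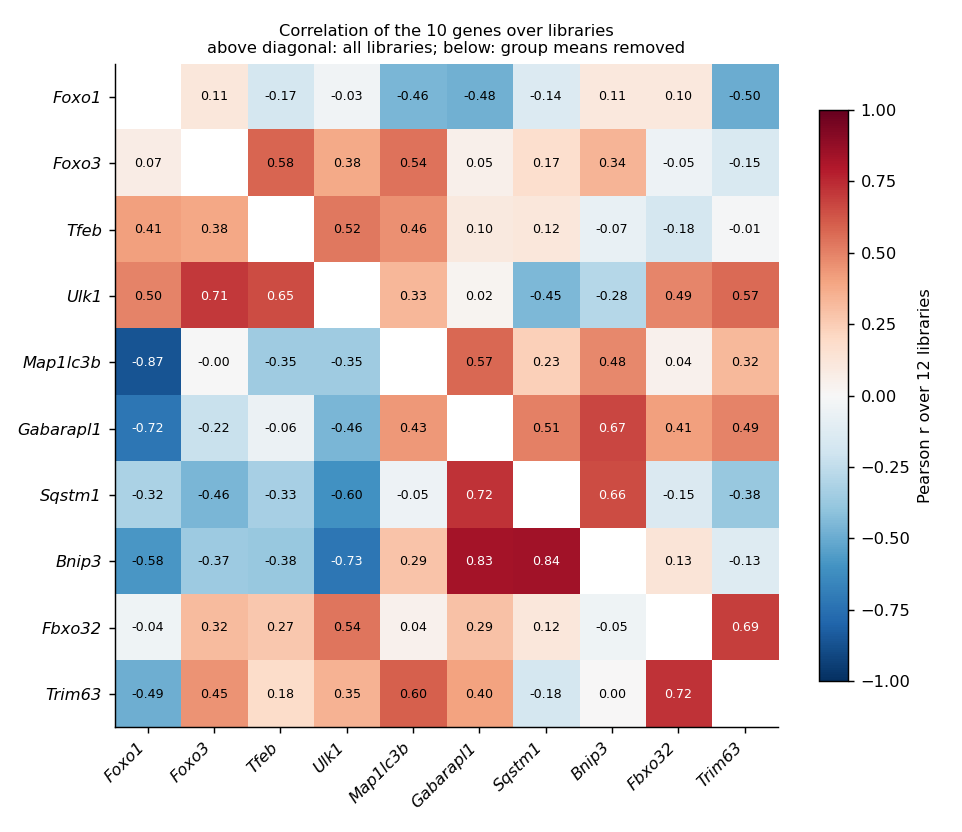
Pearson correlation (colour scale from -1 to 1) of each pair of the 10 genes over 12 libraries on the log2 scale, above the diagonal over all libraries and below it with each group's mean removed. The block of Gabarapl1, Sqstm1 and Bnip3 and the pair Fbxo32 and Trim63 are positive on both sides, and Foxo1 with Map1lc3b is negative on both.

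Among 10733 other genes averaging at least 100 normalized counts, those most like Trim63 over the 12 libraries were Fam134b (r = 0.94), Cdc23 (0.894) and Pacsin2 (0.886). Fam134b is known as a receptor for autophagy of the endoplasmic reticulum. For Map1lc3b, the other of 2 members chosen after their values were seen, they were Pttg1 (0.991), Bckdha (0.987), a subunit of the branched-chain ketoacid dehydrogenase, and Acadl (0.984), an enzyme of fatty acid oxidation. As the 3 highest of so many these values are extremes by construction.

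The 10 genes lie on GRCm38 at chromosome 3, 52268336 to 52353221 (Foxo1), chromosome 10, 42181841 to 42276755 (Foxo3), chromosome 17, 47737030 to 47792419 (Tfeb), chromosome 5, 110784488 to 110810097 (Ulk1), chromosome 8, 121590361 to 121598760 (Map1lc3b), chromosome 6, 129533160 to 129542346 (Gabarapl1), chromosome 11, 50199366 to 50210827 (Sqstm1), chromosome 7, 138890836 to 138909519 (Bnip3), chromosome 15, 58175879 to 58214932 (Fbxo32) and chromosome 4, 134315120 to 134329629 (Trim63). Whether counting used strand is not given in the sources used here, so reads of genes on the opposite strand cannot be told apart where exons overlap. The overlap covers 28.3% of the exon bases of Gabarapl1 (1700101I11Rik), 22.3% of Bnip3 (Gm45507), 17.3% of Sqstm1 (Mrnip), 7.8% of Foxo1 (Gm20402), 2.7% of Fbxo32 (Gm15943) and 0.8% of Map1lc3b (Zcchc14). Foxo3, Tfeb, Ulk1 and Trim63 share no exon bases with another annotated gene.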

How the data were processed

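PolyA RNA of 12 mouse heart samples was sequenced, 3 in each of 4 groups. The submitters' processing notes name DESeq2, Subread 1.5.2, STAR 2.5.2b and Trimmomatic 0.36, with the builds mm10 and GRCm38, and which tool did what is not given in the sources used here. The deposited signal is read counts that the authors scaled, per gene, by a size factor for each library and table. The whole reads were recovered from it: 100% of values came out whole within 0.01 of a read, and 0 of 184731 gene and library pairs differed between the 2 tables of a library. The log2 fold changes and p-values that the authors deposited, per the file headers, are quoted only where named. The test for the deposited normalized values was limma 3.58.1 in R 4.3.3 (variance trend over level, robust; statmod 1.5.0) after adding 1 and taking log2, for genes averaging 10 or more, within the 6 libraries of a table. P-values were adjusted over all genes by Benjamini-Hochberg and called under 0.05. The interaction used the 12 libraries of the 2 TAC tables. Alternatives were a pseudocount of 10, no filter, a mean of at least 100, TMM scaling (edgeR 4.0.16), library totals, DESeq2 1.42.0 and edgeR's quasi-likelihood test on recovered reads, the replicate number as a block, trends over GC content and transcript length removed (natural splines with 4 degrees of freedom), 12 libraries in 1 fit, and each library left out. The scripts were tested on simulated counts. Annotation came from GENCODE M21 (16214 of 16246 gene IDs matched). The members and lists were chosen with earlier results of these data known. All 10 members are named, and from each pathway list up to 4 other called genes per comparison with the smallest p, or the 1 with the smallest p where none was called; for likeness the 3 most correlated genes of 2 members. Depth was 13848953 to 52059546 reads per library.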

Additional observations from a re-analysis of the deposited data

Results flagged for a closer look

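For 10 of 135 genes tested in the pathway lists (7.41%, beside 8.65% of all genes) the response to TAC differed between the diets by the test of the interaction itself (adjusted p under 0.05 by limma), given as the response on the BCAA-free diet minus that on the control diet, in log2. Among regulators of FOXO it was -0.94 for the growth factor receptor gene Igf1r, 0.51 for Akt1 and -0.44 for Pik3ca. Among FOXO targets and muscle ligases it was 0.53 for Sod2, the mitochondrial superoxide dismutase, and -0.49 for Fbxo40. In autophagy it was 0.66 for Atg101, 0.85 for Map1lc3a, 0.79 for Pink1 and 0.57 for Phb2, and for the lysosome membrane gene Lamp2 it was -0.42. Of these 10 calls, 2 (Igf1r and Sod2) were kept with trends over GC content and length removed, 6 with scaling to library totals alone, and from 1 to 10 with 1 library left out. None of the 10 genes named at the opening of the results passed the same test.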

How the results depend on the processing

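For the diet after TAC 2 or 3 of the 10 genes were called higher and 0 lower under each setting that keeps all libraries. The other counts moved as follows. For TAC on the control diet DESeq2 gave 1 lower and limma over 12 libraries 2 lower, against 0. For TAC on the BCAA-free diet the fit with the replicate number as a block gave 1 higher (Tfeb, adjusted p = 0.0406) and 2 lower (Bnip3 and Fbxo32), while removed GC and length trends and the fit over 12 libraries gave 0 lower, against 0 higher and 1 lower. For the interaction library totals gave 1 lower and DESeq2 1 higher and 1 lower, against 0. With 1 library left out the counts ranged from 0 to 1 lower for TAC on the BCAA-free diet, 0 to 1 higher for the diet after sham (Bnip3 without control diet sham replicate 3), 2 to 4 higher for the diet after TAC, and 0 to 1 in each direction for the interaction; the other counts stayed at 0. Same-numbered samples had correlations of deviations from -0.182 to 0.0812, and differently numbered samples from -0.17 to 0.244. With 3 samples per group these values cannot settle whether the replicate numbers pair samples. The block moved no other count of the 10 genes past 1.5 times.

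Signs of small, uncalled estimates changed as follows. Scaling to library totals alone, which shifts the median of all genes by 0.145 for TAC on the control diet, -0.129 for the diet after TAC and -0.2 for the interaction, gave for TAC on the control diet Foxo3 0.095 and Bnip3 0.097. It gave for TAC on the BCAA-free diet Foxo3 -0.0027 and Map1lc3b -0.018, for the diet after sham Fbxo32 0.018, Gabarapl1 0.030 and Tfeb 0.010, and for the diet after TAC Sqstm1 -0.0031 and Gabarapl1 -0.0091. For the interaction it gave Foxo3 -0.097, Sqstm1 -0.15 and Gabarapl1 -0.039. Removed GC and length trends gave Bnip3 0.042 for TAC on the control diet, and Sqstm1 -0.084, Map1lc3b -0.0078 and Tfeb -0.049 for TAC on the BCAA-free diet. They gave Gabarapl1 0.029 and Tfeb 0.067 for the diet after sham, Foxo1 0.060, Fbxo32 0.060 and Gabarapl1 -0.013 for the diet after TAC, and Fbxo32 0.13, Sqstm1 -0.092 and Gabarapl1 -0.043 for the interaction.

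With 1 library left out, the estimates that changed sign ranged as follows. For TAC on the control diet they were -0.0699 to 0.142 (Sqstm1), -0.143 to 0.0933 (Foxo3) and -0.158 to 0.122 (Bnip3). For TAC on the BCAA-free diet they were -0.0331 to 0.108 (Foxo3), -0.0902 to 0.0659 (Ulk1) and -0.0223 to 0.0398 (Map1lc3b). For the diet after sham they were -0.00417 to 0.111 (Map1lc3b), -0.0965 to 0.0604 (Tfeb), -0.113 to 0.058 (Fbxo32) and -0.128 to 0.171 (Gabarapl1), and after TAC -0.182 to 0.048 (Trim63). For the interaction they were -0.0749 to 0.164 (Foxo3), -0.0983 to 0.114 (Sqstm1) and -0.0536 to 0.251 (Gabarapl1). None of these passed the threshold. The causes of these changes were not tested.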
